A study of Homo sapiens with 6 samples.

Results

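The unfolded protein response and the ATF4 amino-acid response were followed through 42 genes: the stress sensors of the endoplasmic reticulum (ER), its chaperones and degradation machinery, the transcription factors of the response, their targets, and the genes of serine and asparagine synthesis and amino-acid transport. The members were taken by name, from their known roles, with earlier results of these data known, and each was read through the probes whose RefSeq accession belongs to it. All 42 were among the 14747 named genes with a tested probe. The cells were SU-DHL-2, an established human diffuse large B-cell lymphoma line. The IL-17A group held 3 samples exposed for 72 h to interleukin-17A, an inflammatory cytokine, at 200 pg/ml. The control group held 3 samples kept for the same time without the cytokine, and both groups grew in the same serum-containing medium. The comparison asks how the cytokine changed gene expression in these lymphoma cells. All samples come from 1 cell line, and the labels do not say whether the 3 samples of a group were separate cultures, so the p-values measure the spread between these samples, which may be technical.

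Unfolded proteins in the ER activate the sensors IRE1 (gene ERN1), PERK (EIF2AK3) and ATF6. IRE1 splices the mRNA of XBP1, and XBP1 and ATF6 then switch on chaperones and degradation genes. PERK, like the amino-acid sensor GCN2, phosphorylates the translation factor eIF2, which slows most translation but favours that of ATF4. ATF4 drives genes that import and make amino acids and, with CHOP (DDIT3), genes that restrain growth and restart translation. B cells lean on the XBP1 arm when they turn into antibody-secreting plasma cells.

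Expression was measured on 1-colour arrays, 1 per sample. Between 23570 and 24077 probes were detected on each of the 6 arrays, no spot was saturated, and 40 of the 42 members were detected on all 6. ERN1 and SESN2 were detected on 5. The number of arrays limits the precision. The arrays shared 2 scans: the 3 controls shared theirs with IL-17A replicate 1, and the other two IL-17A arrays were scanned together. With scan as a block, the comparison is that of IL-17A replicate 1 with the controls, and it is given beside the results. All 10 B-cell markers were detected on all 6 arrays, from PAX5 at a mean log2 signal of 3.76 to POU2AF1 at 14.63. Markers of other cell types were detected on all 6 as well, among them VWF (5.98) and CD3D (5.35), both brighter than PAX5. Detection alone is therefore no check of the labelled cell type, and the summed signals of the marker lists are given below.

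The sequences that the response reads lie in the promoters of its genes. Those of some members, called and not called, and of XBP1 are shown here, as RefSeq gives them (GRCh38.p14). Windows from 250 bases before to 50 bases after a start were given for 38 of the 42 members. The ER stress response element, CCAAT, then 9 bases, then CCACG, binds ATF6 with the factor NF-Y. It was found, on either strand, in 4 of 38 members (10.5%). Of all 27305 genes with a window 0.0916% held it, and of the 11650 tested ones 0.155%. The capitals mark the ends of the element. HSPA5 is shown as the chaperone that anchors the response, HSP90B1 as the chaperone with a pair of elements and a called change, PDIA6 and CRELD2 as carriers without one, and XBP1, no member, as the target of IRE1.
HSPA5: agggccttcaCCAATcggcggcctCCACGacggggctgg
HSP90B1: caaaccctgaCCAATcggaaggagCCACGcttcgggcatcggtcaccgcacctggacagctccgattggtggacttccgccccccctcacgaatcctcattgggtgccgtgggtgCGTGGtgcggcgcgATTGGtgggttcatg
PDIA6: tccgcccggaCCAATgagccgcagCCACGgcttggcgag
CRELD2: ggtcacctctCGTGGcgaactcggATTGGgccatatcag
XBP1: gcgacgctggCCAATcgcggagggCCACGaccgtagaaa
These stretches lie at chr9:125241381-125241419 on the minus strand for HSPA5, chr12:103930206-103930349 on the plus strand for HSP90B1, chr2:10812843-10812881 on the minus strand for PDIA6, chr22:49918544-49918582 on the plus strand for CRELD2 and chr22:28800593-28800631 on the minus strand for XBP1. The element of HSPA5 began 66 bases before the start, and those of HSP90B1 began 194 and 89 bases before it. The element of CRELD2 and the one of HSP90B1 nearer the start read in the reverse direction, so that CGTGG comes before ATTGG.

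The amino-acid response has its own element, TGATGNAA, where ATF4 binds with a C/EBP partner. It was found in 7 of 38 members (18.4%), namely ASNS, ATF3, CEBPG, CHAC1, HERPUD1, SLC3A2 and SLC7A1. Of the 27305 genes 4.46% held it, and of the 11650 tested ones 2.98%. The sites that lie before the start are shown for ASNS and CHAC1, which rose, for ATF3, whose probes went both ways, and for CEBPG, which did not pass the test. Capitals mark the element.
ASNS: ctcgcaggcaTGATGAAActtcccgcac
CHAC1: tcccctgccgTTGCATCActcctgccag
ATF3: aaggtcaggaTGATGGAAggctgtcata
CEBPG: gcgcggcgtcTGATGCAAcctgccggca
These lie at chr7:97872459-97872486 on the minus strand (ASNS), chr15:40953252-40953279 on the plus strand with the element reversed (CHAC1), chr1:212565206-212565233 on the plus strand (ATF3) and chr19:33374061-33374088 on the plus strand (CEBPG). The sites of ASNS and CEBPG began 68 and 42 bases before the start, and those of ATF3 and CHAC1 began 191 and 209 bases before it. A second type of ER stress element, ATTGG, then 1 base, then CCACG, was found in HERPUD1, HYOU1 and SDF2L1. These are 7.89% of members, against 0.0696% of all genes and 0.137% of the tested ones. The XBP1 site TGACGTGG was found in HYOU1 alone among the members (2.63% against 0.927% of all genes and 1.24% of the tested ones). In HYOU1 it overlapped the second type of element. Among the members that rose, HSP90B1, ASNS and CHAC1 held a match to a searched element in their windows. ATF4, ATF5, DDIT3, DDIT4, TRIB3 and DNAJB9 held no match. The members were taken from their known roles, so their shares are no separate finding. A match is a description of the letters in these windows, and the arrays did not measure the promoters.

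In the cells co-cultured with IL-17A, 9 of the 42 members rose (21.4%), where 4.37% of all 14747 tested genes did. These were the transcription factors ATF4, ATF5 and DDIT3, the targets DDIT4, TRIB3 and CHAC1, asparagine synthetase (ASNS) and the ER chaperones DNAJB9 and HSP90B1. ATF3 was the 1 member called lower (2.38%, against 3.48% of all genes), on the brightest of its 4 probes. Together 10 of 42 were called, against 7.85% of all genes, and the other 32 members did not pass the test. A call is an adjusted p under 0.05 in limma, adjusted by Benjamini-Hochberg over all tested probes. The changes were small: on the brightest probe of each gene the largest was 1.35-fold, for ATF5 (dimmer probes of ATF3 read 1.36-fold and 1.51-fold higher). In limma and in the methods' test, 0 of 42 members also reached the 1.5-fold threshold of the methods. In limma 1.92% of all genes passed both that fold and an unadjusted p under 0.05.

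The median log2 fold change of the 42 members was 0.10, and that of all tested genes was 0.00, with quartiles of -0.11 and 0.11. The difference was above 0 for 35 members and below 0 for 7, where 50.9% of all genes were above 0. At an unadjusted p under 0.05 in limma, 17 of the 42 members were higher and 3 of 42 lower, where 16.9% and 14.8% of all genes were. All 3 IL-17A arrays lay above all 3 controls for 20 of the 42 members and below them for 4 of 42. Of all genes, 21.4% and 19.3% did so. These counts sum up a list of genes and are no test of it. Total RNA was measured, so fewer cells with a transcript and less of it per cell cannot be told apart.

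**Figure D1:**
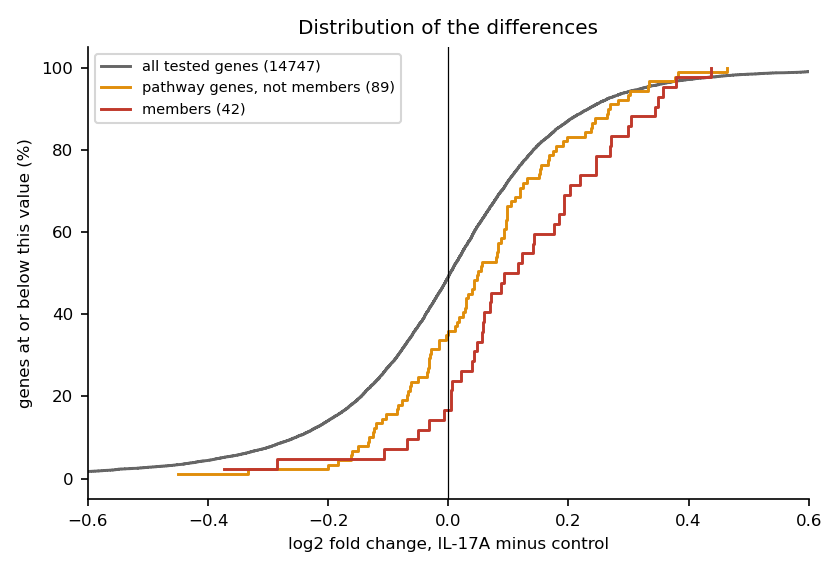
Cumulative share of genes (vertical axis, percent) at or below each log2 fold change, IL-17A minus control (horizontal axis), for all 14747 tested genes, the 89 tested pathway genes that are no members and the 42 members. The curve of the members lies to the right of that of all genes over most of the range, with medians of 0.10 and 0.00.

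Most calls were lost when an array was left out or scan was a block. With scan as a block, 0 members passed an adjusted p of 0.05 in limma, as did only 31 of all genes (0.21%), and 15 members were higher and 2 lower at an unadjusted p under 0.05, where 11.2% and 11.1% of all genes were. The median of the members was again 0.10, and 40 of 42 kept their sign, the 10 called members among them. The called members had been picked on arrays that this fit also uses, so their sign was largely set by that choice. Without control replicate 3, 4 members were called higher and 1 lower, where 2.26% and 1.46% of all genes were. Without any 1 of the other 5 arrays no member was called in either direction. In those fits at most 0.14% of all genes were called higher and 0.15% lower.

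**Figure D2:**
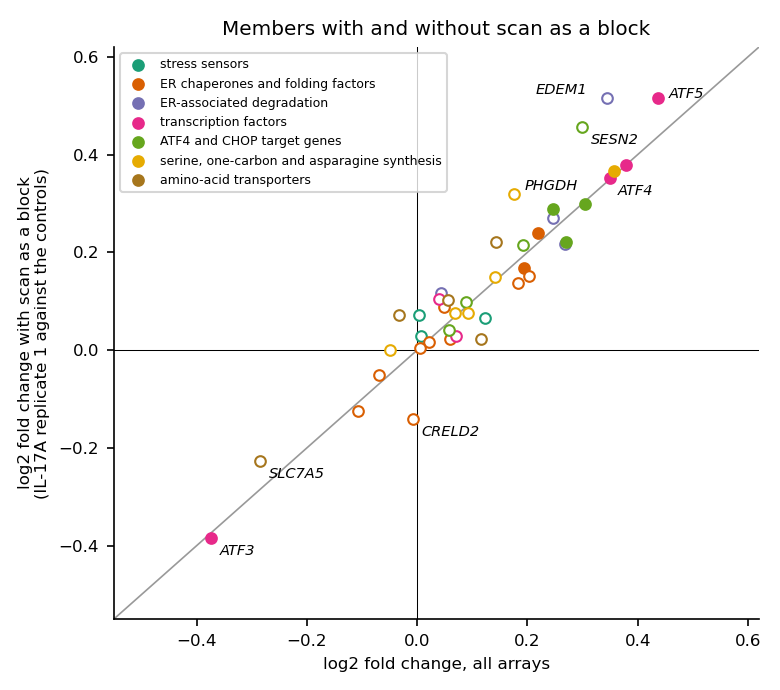
Log2 fold change of each member with all arrays (horizontal axis) against that with scan as a block, which compares IL-17A replicate 1 with the 3 controls (vertical axis). Filled points passed an adjusted p of 0.05 without the block, and the grey line marks equal values. Most members lie near the line, with EDEM1, SESN2 and PHGDH above it and CRELD2 below it.

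The 3 stress sensors did not pass the test. ERN1, which encodes the kinase and nuclease IRE1, was dim and read 2.96, 3.14 and 2.96 (log2 signal) on the IL-17A arrays and 2.91, 2.38 and 3.38 on the controls. The controls spread widely and enclosed all 3 IL-17A values. Its log2 fold change was 0.12, with a 95% interval from -0.50 to 0.75 (adjusted p = 0.768, limma), and it turned to -0.13 without control replicate 2. For EIF2AK3, which encodes PERK, and ATF6, a membrane-held transcription factor, the log2 fold changes were 0.01 and 0.00, with intervals from -0.13 to 0.15 and from -0.10 to 0.11.

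Among the 11 ER chaperones and folding factors, DNAJB9 and HSP90B1 rose, where 4.37% of all genes did, and the median log2 fold change was 0.05. DNAJB9, the co-chaperone ERdj4 and a well-known target of XBP1, read 9.77, 9.74 and 9.75 with IL-17A and 9.54, 9.55 and 9.52 in the controls. The gap between the groups was far wider than the spread within either, at a log2 fold change of 0.22 (SE 0.03, adjusted p = 0.0330 in limma). HSP90B1, the ER chaperone GRP94, read 13.85, 13.88 and 13.88 against 13.65, 13.66 and 13.72. All 3 IL-17A arrays were above the controls, with a log2 fold change of 0.19 (SE 0.04, adjusted p = 0.0457 in limma). Its dimmer second probe gave 0.07 (adjusted p = 0.373 in limma), with overlapping groups. HSP90B1 is the member whose promoter carries both copies of the ER stress element shown above.

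HSPA5, the chaperone BiP that holds the sensors inactive, read 8.16, 8.28 and 8.18 on the IL-17A arrays and 7.93, 8.06 and 8.09 on the controls. The groups did not overlap, but the lowest IL-17A array lay close to the highest control, and the log2 fold change of 0.18 had an interval from 0.03 to 0.34 and did not pass the test (adjusted p = 0.115, limma). The other folding factors spread around 0. HYOU1, a large ER chaperone of the HSP70 family, gave 0.20 with overlapping groups, and DNAJC3, an inhibitor of PERK, gave 0.06. The disulfide isomerases PDIA6 and PDIA4 gave 0.05 and 0.00, the secreted factor MANF gave 0.02 without overlap and CRELD2 gave -0.01. DNAJB11, a BiP co-chaperone, gave -0.11 (adjusted p = 0.119, limma) with all 3 IL-17A arrays below the controls. SDF2L1, which works with it, gave -0.07, also without overlap. The carriers of the ER stress element ranged from -0.01 for CRELD2 to 0.19 for HSP90B1.

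None of the 4 members of ER-associated degradation was called, although they had the highest median of the 7 roles, 0.26. EDEM1, a lectin that hands misfolded glycoproteins over for degradation, was at 9.33 ± 0.15 (mean ± SD, n = 3) on the IL-17A arrays and 8.98 ± 0.04 on the control arrays, and differed by 0.34 on the log2 scale (adjusted p = 0.0615, limma). Its array of IL-17A replicate 1 was the highest, at 9.50 against 9.21 and 9.28, and the scan block gave a log2 fold change of 0.52. SEL1L, the scaffold of the HRD1 ubiquitin ligase, gave 0.27 (adjusted p = 0.0599, limma) on its brightest probe, and 0.15 and 0.03 on its dimmer ones. HERPUD1, an ER membrane protein of the same complex, was at 13.11 ± 0.02 against 12.86 ± 0.09, a log2 fold change of 0.25 (adjusted p = 0.0553, limma). In these 3 genes, singled out after their values were seen, all IL-17A arrays were above all controls, as in 21.4% of all genes. SYVN1, the ligase HRD1 itself, gave 0.04 with overlapping groups.

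Of the 6 transcription factors, 3 rose and 1, ATF3, was called lower on its brightest probe, where 4.37% and 3.48% of all genes were. ATF4, the factor at the centre of the amino-acid response, read 14.85, 14.86 and 14.82 with IL-17A and 14.43, 14.47 and 14.60 in the controls. The IL-17A arrays lay close together and above every control, and the log2 fold change was 0.35 (SE 0.05, adjusted p = 0.0339 in limma), a 1.27-fold rise of the mRNA. With 75th percentile scaling instead of quantile normalization it was 0.23 and was not called (adjusted p = 0.0811, limma). ATF5, a related factor whose translation also depends on eIF2, read 7.13, 6.99 and 7.04 against 6.59, 6.62 and 6.64. On the brightest probes this was the largest rise of the 42 members, with a log2 fold change of 0.44 (SE 0.05, adjusted p = 0.0311 in limma). DDIT3, the death-promoting factor CHOP, read 6.71, 6.72 and 6.70 against 6.29, 6.47 and 6.23. The controls spread more widely than the IL-17A arrays but stayed below them, and the log2 fold change was 0.38 (SE 0.07, adjusted p = 0.0420 in limma). The C/EBP partners of ATF4 were near 0, at 0.04 for CEBPB and 0.07 for CEBPG, both with overlapping groups.

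ATF3, a stress-induced factor that acts below ATF4, had 4 tested probes, of which 2 were lower with IL-17A and 2 higher. The brightest read 7.27, 7.30 and 7.27 with IL-17A and 7.62, 7.56 and 7.77 in the controls. It was lower on all 3 IL-17A arrays, by a log2 fold change of -0.37 (SE 0.06, adjusted p = 0.0363 in limma). The second brightest read 6.89, 6.84 and 6.95 against 6.46, 6.38 and 6.53. It was higher on all 3 IL-17A arrays, by a log2 fold change of 0.44 (SE 0.05, adjusted p = 0.0314 in limma). The third gave -0.35 (adjusted p = 0.215, limma). The dimmest gave 0.59 (adjusted p = 0.0891, limma), and as the 1 member probe past both a 1.5-fold change and an unadjusted p under 0.05 it read 1.51-fold higher. The mean over the 4 probes was 0.08, opposite in sign to the brightest probe. Of the 4 probes, 3 are listed under the same transcript and the third under another, so the direction of ATF3 was not settled by these arrays.

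**Figure D3:**
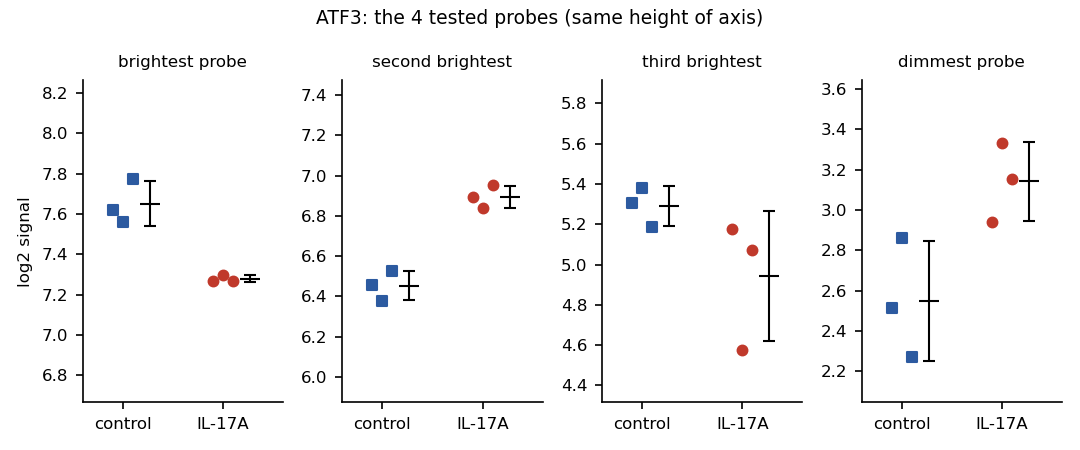
Log2 signal (vertical axis, of equal height in each panel) of the 4 tested ATF3 probes on the 3 control arrays (squares) and the 3 IL-17A arrays (circles), with mean and SD beside the points. The brightest probe was lower with IL-17A, by 0.37 on the log2 scale, and the second brightest higher, by 0.44.

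All 7 targets of ATF4 and CHOP had a difference above 0, with a median of 0.25, and 3 of them rose. Of all genes, 50.9% were above 0 and 4.37% rose. CHAC1, which breaks down glutathione, read 8.32, 8.32 and 8.35 with IL-17A and 8.02, 8.05 and 7.99 in the controls. The log2 fold change was 0.30 (SE 0.04, adjusted p = 0.0313 in limma), and its dimmer probe gave 0.37 (adjusted p = 0.119, limma). TRIB3, a pseudokinase that restrains both ATF4 and AKT, read 11.61, 11.70 and 11.68 against 11.34, 11.41 and 11.42. The groups were clearly separated, with a log2 fold change of 0.27 (SE 0.04, adjusted p = 0.0349 in limma). DDIT4, the mTORC1 inhibitor REDD1, read 10.40, 10.32 and 10.35 against 10.11, 10.10 and 10.13. Its log2 fold change was 0.25 (SE 0.04, adjusted p = 0.0334 in limma).

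The other targets did not pass the test. SESN2, a leucine sensor that restrains mTORC1, was at 6.90 ± 0.14 on 3 IL-17A arrays and 6.60 ± 0.12 on 2 controls, since the spot of control replicate 3 was marked as non-uniform and left out of the fit. Its log2 fold change was 0.30 (adjusted p = 0.136, limma), and 0.46 with scan as a block. PPP1R15A, the GADD34 subunit that reverses eIF2 phosphorylation, gave 0.19 (adjusted p = 0.119, limma), with all IL-17A arrays above the controls. The lipoprotein receptor VLDLR gave 0.09 and the small stress protein NUPR1 gave 0.06, and both were dim with overlapping groups.

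In the synthesis of serine, 1-carbon units and asparagine, ASNS was the 1 member of 6 that rose, where 4.37% of all genes did. It makes asparagine from aspartate and is a textbook target of ATF4, through the promoter element shown above. It read 13.45, 13.49 and 13.37 on the IL-17A arrays and 13.04, 13.08 and 13.12 on the controls. Every IL-17A array was well above every control, and the log2 fold change was 0.36 (SE 0.05, adjusted p = 0.0326 in limma), a 1.28-fold rise. The other 5 did not pass the test. PHGDH, the entry enzyme of serine synthesis, gave 0.18 with overlapping groups (0.32 with scan as a block), and PSAT1, the next step, gave 0.14 (adjusted p = 0.0762, limma) with all 3 IL-17A arrays above the controls. PSPH, which completes serine, gave 0.09 and the mitochondrial folate enzyme MTHFD2 gave 0.07, also without overlap. SHMT2, which passes the carbon of serine to folate, gave -0.05.

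No amino-acid transporter was called in either direction. SLC7A5, the light chain of the leucine transporter LAT1, was the lowest, at 9.58 ± 0.06 on the IL-17A arrays and 9.86 ± 0.11 on the control arrays, and its log2 fold change was -0.28 (adjusted p = 0.0616, limma). All 3 IL-17A arrays were below all 3 controls. Its heavy chain SLC3A2, which also pairs with the cystine transporter SLC7A11, gave -0.03, and SLC7A11 gave 0.12, both with overlapping groups. The arginine transporter SLC7A1 gave 0.14 (adjusted p = 0.112, limma) with no overlap. The glutamine transporter SLC38A2 gave 0.06 on its brightest probe and 0.19 (adjusted p = 0.0667, limma) on the dimmer one.

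**Figure D4:**
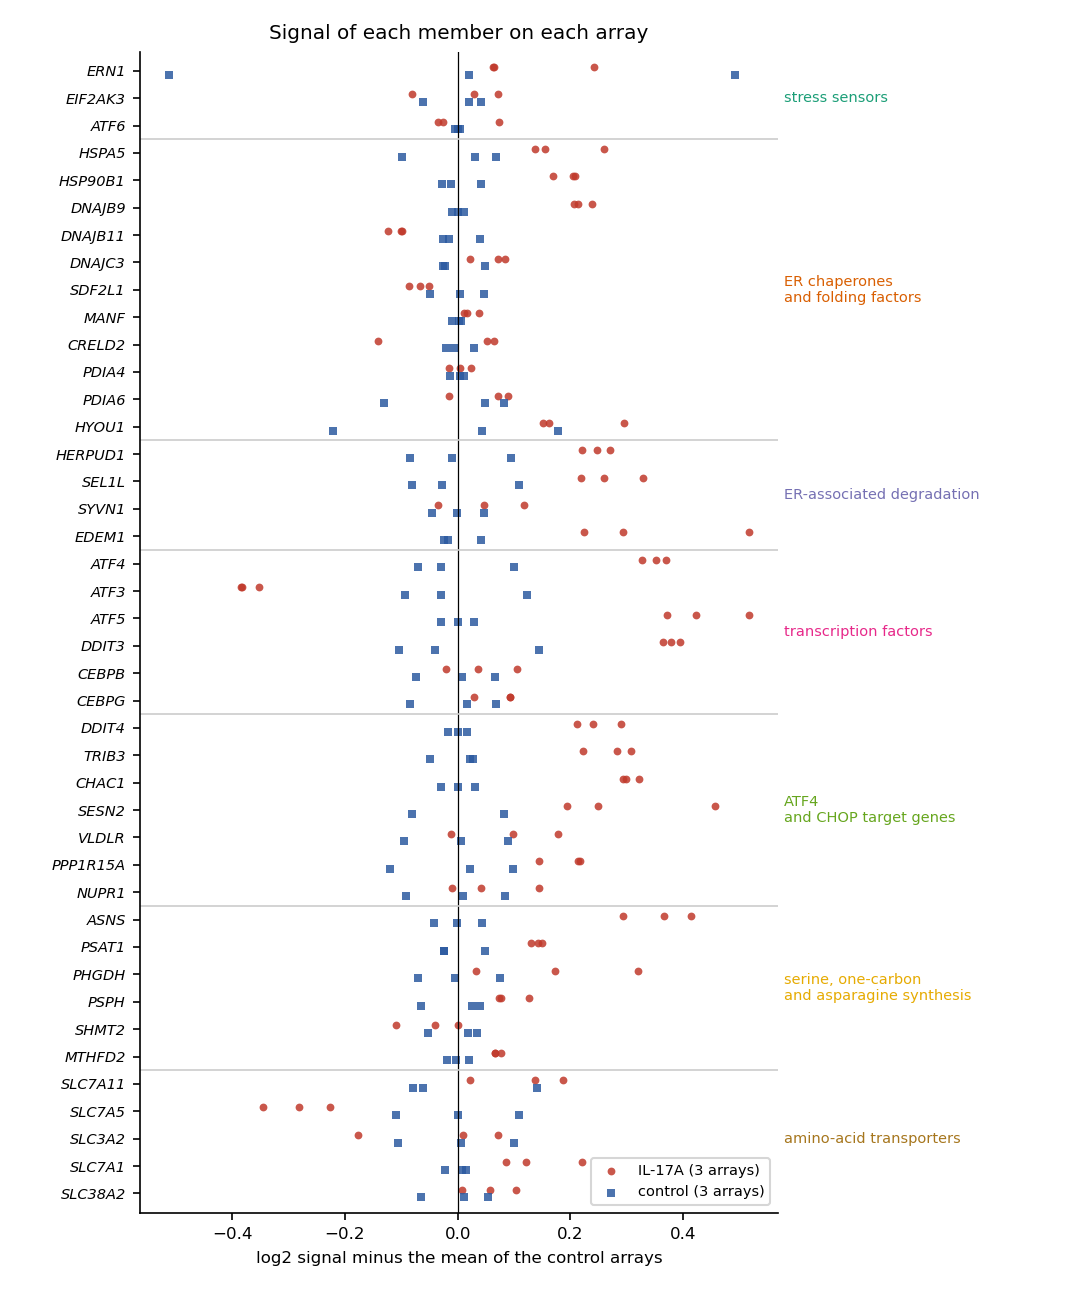
Log2 signal of each of the 42 members on each array, minus the mean of its control arrays (horizontal axis), grouped by role, with IL-17A arrays as circles and control arrays as squares. For 20 of the 42 members the IL-17A arrays lie to the right of all controls. Among them are ATF4, ATF5, DDIT3, ASNS, TRIB3, CHAC1, DDIT4, DNAJB9 and HSP90B1, which were called. For 4 they lie to the left: ATF3 (brightest probe), SLC7A5, DNAJB11 and SDF2L1. ERN1 shows controls on both sides.

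**Figure D5:**
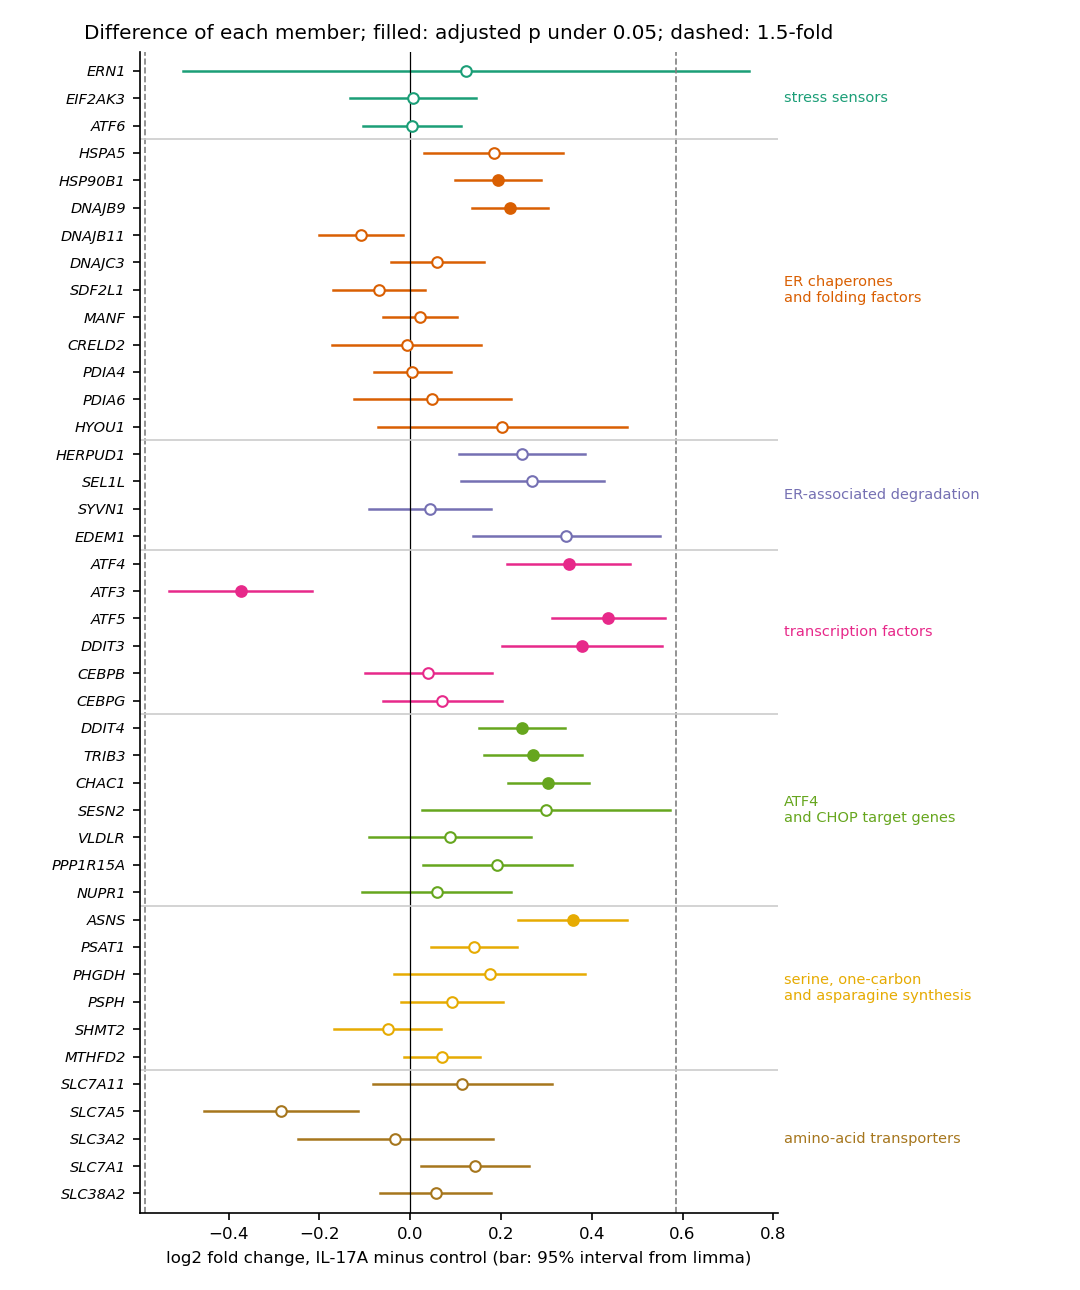
Log2 fold change of each member, IL-17A minus control (horizontal axis), with its 95% interval from limma, grouped by role. Filled points mark an adjusted p under 0.05, and no point reaches the dashed lines at a 1.5-fold change in either direction.

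Beyond the members, 93 further genes of the same pathways were listed, and 89 had a tested probe. Of these, 11 rose (12.4%) and 0 fell, where 4.37% and 3.48% of all genes did. At an unadjusted p under 0.05 in limma, 29 of the 89 were higher and 8 of 89 lower, where 16.9% and 14.8% of all genes were. In the methods' test 9 were higher and 1 lower at an adjusted p under 0.05, where 3.25% and 2.68% of all genes were. The median log2 fold change was 0.05. XBP1, the factor that IRE1 splices, read 11.15, 11.19 and 11.17 with IL-17A and 10.76, 10.78 and 10.82 in the controls. The groups lay far apart relative to their spread, and the log2 fold change was 0.38 (SE 0.04, adjusted p = 0.0286 in limma). Whether the spliced or the unspliced form changed was not tested. FKBP14, a prolyl isomerase of the ER, gave 0.38 (adjusted p = 0.0252, limma).

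On the ATF4 side, the histone demethylase KDM7A gave 0.46 (adjusted p = 0.0313, limma), at 9.09 ± 0.06 against 8.62 ± 0.07. CTH, which makes cysteine from cystathionine, gave 0.30 (adjusted p = 0.0313, limma), and GPT2, the mitochondrial alanine transaminase, gave 0.33 (adjusted p = 0.0419, limma). The 19 tested genes of this metabolic and stress list had a median of 0.03, with 4 called higher and 8 below 0. Of all genes, 4.37% were called higher and 50.9% were above 0. GDF15, a secreted stress cytokine, was at -0.33 (adjusted p = 0.0907, limma), with all 3 IL-17A arrays below the controls. A list of 14 genes held the aminoacyl-tRNA synthetases, which load tRNAs with amino acids, and the tRNA exporter XPOT. Of these, 13 had a difference above 0 and 3 rose, where 50.9% of all genes were above 0 and 4.37% rose. The risers included CARS1 with 0.28 (adjusted p = 0.0368, limma) and GARS1 with 0.23 (adjusted p = 0.0425, limma). The median of these 14 was 0.12, and VARS1 was the 1 gene below 0, at -0.18 (adjusted p = 0.0876, limma) with all 3 IL-17A arrays below the controls. The 16 further ER-associated degradation genes had a median of -0.03, with 0 called in limma in either direction and 2 higher and 4 lower at an unadjusted p under 0.05, where 16.9% and 14.8% of all genes were. All 11 calls were lost with scan as a block, and without control replicate 3 there were 6 higher and 1 lower, against the 2.26% and 1.46% of all genes given above. Without any 1 of the other 5 arrays there was none, where at most 0.14% of all genes were called higher and 0.15% lower.

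Markers of other cell states were set beside these results. Of 6 plasma-cell markers, all detected, PRDM1, the factor that drives plasma-cell fate, rose (log2 fold change 0.38, adjusted p = 0.0327 in limma) together with XBP1, which is also on that list, while SDC1 gave -0.21 (adjusted p = 0.0923, limma) and JCHAIN -0.04. The summed plasma-cell signal ranged from 15.22 to 15.32 on the IL-17A arrays and from 15.19 to 15.28 on the controls (log2), and that of the 10 B-cell markers from 16.13 to 16.16 and from 16.00 to 16.09. None of the B-cell markers was called. Of 5 T-cell markers 4 were tested, and CD3E, near the dim end at 2.78 ± 0.08 against 3.24 ± 0.13, fell (log2 fold change -0.46, adjusted p = 0.0401 in limma), while the other 3, CD3D, CD2 and CD8A, gave -0.11, 0.51 and -0.51 and were not called. The summed T-cell signal ranged from 6.31 to 6.59 with IL-17A and from 6.63 to 6.71 in the controls. The 3 tested endothelial markers, PECAM1, CDH5 and VWF, gave -0.16, -0.30 and -0.30 and were not called, with a sum of 7.97 to 8.01 against 8.10 to 8.31. Of 4 monocyte and 4 mesenchymal markers, 1 each was tested (CD14 and COL1A1), with overlapping groups, and CD68, CSF1R, COL1A2, DCN and LUM, like CD5 of the T-cell list and KDR of the endothelial list, were detected on too few arrays to be tested. The part of these markers in the results on the 42 genes was not tested.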

How the data were processed

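The 6 samples of SU-DHL-2 cells, grouped by their titles, were hybridised by the authors to Agilent 1-colour arrays and read with Feature Extraction 11.0.1.1. The deposited files hold each spot's processed intensity (background-subtracted), with flags per the file headers. A deposited table of log2 values, described in the authors' methods as quantile normalized in GeneSpring, served as an alternative. Here intensities below 1 were set to 1, log2 transformed and averaged over the spots of a probe, 61 non-uniform spots were left out, and the arrays were quantile normalized. Probes detected (above background by both flags) on at least 3 of 6 arrays were tested (23945 of 34127) with limma 3.58.1 in R 4.3.3, with no covariate. A gene was represented by its brightest tested probe. Genes were named from the probes' RefSeq accessions, without version, through RefSeq's GRCh38.p14 gene table. Of 51 member probes 50 were tested, and 1 VLDLR probe, detected on 1 array, was not.

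The members and lists were chosen with earlier results of these data known. Values on each array were given for HSPA5, ATF4, DDIT3, ASNS, TRIB3 and ERN1, for members past a 1.5-fold change and an unadjusted p of 0.05, and for up to 15 members with the lowest adjusted p under 0.05. Of the pathway genes, XBP1 and up to 6 with the lowest adjusted p were named. EDEM1, HERPUD1, SEL1L, SLC7A5, SESN2, the dimmer probes and the pathway genes GDF15 and VARS1 were singled out after their values were seen. The listed pathway genes ALDH1L2, SLC7A3, STC2 and NIBAN1 were not tested, and no probe was matched to the marker LYZ. The test was run on simulated arrays with known changes, where the mean estimated change had to lie near the planted one. The simulation held no scan difference and required nothing of the calls. Alternatives were other scaling, background and detection choices, the deposited log2 table, the variance trend, the methods' test, scan or replicate number as a block, the mean over probes, and each array left out in turn.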

Additional observations from a re-analysis of the deposited data

How the results depend on the processing

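The direction of the main results held better than their calls. The 10 called members and 7 named pathway genes kept their direction in 288 of 289 values over the 17 alternatives, with an unadjusted p under 0.05 in 287. These genes were counted because they passed the test on the same arrays. The agreement was largely set by that choice and is no separate support. Over all 19 named genes, 180 of 322 values kept direction and side of the threshold, 140 kept direction but not the threshold, and 2 reversed: ATF3 at 0.0776 with the mean over its probes, and ERN1 at -0.13 without control replicate 2, in a range from -0.13 to 0.37 over the arrays left out. The members called higher, 9 in the main fit (4.37% of all genes), were 5 with 75th percentile scaling (2.79% of all genes there) and 12 with normexp (5.41%). They were 12 with probes detected on all 6 arrays (6.10%) and 13 with the variance trend (9.34%). ATF4, ASNS, TRIB3 and HSP90B1 lost their call with 75th percentile scaling, at log2 fold changes of 0.23, 0.32, 0.28 and 0.12. ATF5, DDIT3, CHAC1, DNAJB9 and DDIT4 kept theirs. The pathway genes called higher, 11 in the main fit, were 7 with 75th percentile scaling and 6 with no filter on detection (2.62% of all genes). Probes detected on all 6 arrays gave 2 members lower (5.10% of all genes there) and a median of 0.0901. Normexp background correction gave 2 lower (4.54%) and a median of 0.0708, and the deposited log2 table gave a median of 0.0875. The mean over probes gave 0 members lower and 2 pathway genes lower (5.05% of all genes there), and a median of 0.119 for the members. The variance trend gave 2 members lower, with 21 pathway genes higher and 4 lower, where 9.34% and 8.38% of all genes were, and the methods' test gave 0 members lower and 1 pathway gene lower. With scan as a block the median of the members was 0.104. With a replicate block 0 members were higher, 0 lower and 0 pathway genes higher, and the cause was not tested. Of all genes, 0.0136% were called higher and 0.00678% lower with the replicate block. The replicate block assumes a pairing. Deviations of same-numbered samples from their group means correlated at -0.0871, -0.0022 and -0.0466, and no IL-17A sample correlated best with the control of its own number. IL-17A replicate 1 was scanned apart from the other IL-17A arrays, so scan and pairing cannot be told apart in these correlations. With each array left out in turn, 0 to 4 members were higher, 0 to 1 lower, 0 to 6 pathway genes higher and 0 to 1 lower, and the median lay between 0.0815 and 0.122. Fewer arrays enter these fits, and over all genes 1 to 334 were then called higher, against 644. No member passed both the 1.5-fold and the unadjusted p threshold under any alternative. ERN1 was dim, and its interval from -0.50 to 0.75 limits what can be said of it.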
